A study of Rattus norvegicus with 2 samples.

Results

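CircRNAs that were listed in Sham lung and sat at the fill-in value in LPS lung are described here. They were selected on both measured values, an LPS value at the fill-in of 0.001 and a Sham value of at least 5 junction reads, and 390 of the 4734 circRNAs in the table met both conditions. Lung tissue came from SD rats 24 h after an intratracheal spray of PBS (Sham) or of LPS at 2 mg/kg (LPS), from a study of 12 rats, and each group is represented by 1 library. How many rats went into a library is not given in the sources used here, so no difference between the libraries has a replicate check and no test was made. The sample labels describe ribosomal RNA removal and RNase R digestion of linear RNA, whereas the published methods name SmartPCR cDNA synthesis followed by RsaI digestion.

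A circRNA forms when the spliceosome joins the end of a downstream exon back to the start of an upstream exon, and the read that crosses this back-splice junction identifies it. The closed ring has no free ends, which makes it resistant to exonucleases and often longer lived than the linear mRNA of the same host gene. A host gene can give several rings, because the same splice site may be joined to different partners, and in a tissue the set of rings depends on which cells are present as well as on the splicing within each cell.

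The deposited values are junction reads scaled to the same total in each library (CPM). In the Sham library 1 read was worth 26.2 CPM at a depth of 38112 junction reads, and in the LPS library 19.0 CPM at a depth of 52505. The Sham library listed 3290 circRNAs above the fill-in and the LPS library 3201, with a median of 5 reads in either. No circRNA was listed with 1 read, so the fill-in covers 0 or 1 read. For 1 hidden read the upper Poisson limit (95%, one-sided) is 4.74 reads, which corresponds to 90.4 CPM in the LPS library, and every lower bound below is the Sham value divided by it, without the counting error of the Sham value itself. Intervals are 95% Wilson intervals and, like the limit, hold for counting error alone, because amplified reads that carry no molecular identifier may stem from the same molecule.

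The 390 circRNAs were 23.6% of the 1650 with at least 5 Sham reads. In the mirrored selection, 464 of the 1645 circRNAs with at least 5 LPS reads were at the Sham fill-in (28.2%). Both shares follow from the selection and nothing is read from them. The selected circRNAs held 3226 Sham reads, 8.46% of that library, with a median of 6 reads. At the edge of the selection, 119 had exactly 5 Sham reads (131 CPM). Just outside it lay 231 circRNAs with 4 Sham reads (105 CPM) and the LPS fill-in, and 120 with at least 5 Sham reads and an LPS value of 2 reads (38.1 CPM). The latter had a median of 7 Sham reads, and the highest had 32. The share at the LPS fill-in went down as Sham reads went up, from 50.2% of the 237 circRNAs with 5 Sham reads to 25.1% of the 223 with 8 or 9 reads, 12.7% of the 481 with 10 to 19 and 3.80% of the 263 with 20 to 49. Among the 95 circRNAs with at least 50 Sham reads, 3 were at the LPS fill-in (3.16%). Most of the selected circRNAs thus had few Sham reads. At equal CPM, 5 Sham reads would correspond to 6.89 LPS reads, and circRNAs were listed from 2 reads up. Whether read depth accounts for the LPS fill-in was not tested. The Sham interval reached the LPS limit for 260 of them and lay above it for the 130 with at least 8 reads. Among circRNAs chosen for the LPS fill-in this is a cut on Sham reads alone, so neither it nor the lower bounds given below support a difference between the groups.

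The host text named 1 gene for 305 of the 390 circRNAs, and these came from 284 host genes. For 84 the host text was a chain of small-RNA families such as snRNAs and snoRNAs, sometimes with a protein-coding gene at the end, and 1 had no host name. Such chains do not identify a host, and these circRNAs are given here by position. Among circRNAs with at least 5 Sham reads, 29.8% of the 282 with a small-RNA chain were at the LPS fill-in, against 22.3% of the 1367 with 1 gene name.

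Only 13 of the selected circRNAs had at least 20 Sham reads, 7 with 1 host gene and 6 with a small-RNA chain. The highest came from Tmem164, which encodes a multi-pass membrane protein, on chromosome X from 114016360 to 114041613. It had 114 Sham reads, 2991 CPM (2491 to 3592), and was at least 33.1-fold lower in the LPS library. Both of its ends were in use in LPS lung. The same start joined to 114077939 had 11 reads in either library, which is 289 CPM (161 to 517) for Sham and 210 CPM (117 to 375) for LPS. The same end joined to a start at 114013414, which the table assigns to a small-RNA chain, had no listed Sham read and 14 LPS reads, 267 CPM (159 to 448). Both splice sites of the Sham ring were thus joined to other partners in the LPS list.

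Next among the rings with 1 host gene came Tnrc6a. It encodes a GW-repeat scaffold of microRNA silencing that binds Argonaute proteins, and its junction on chromosome 1 from 193097001 to 193104538 had 44 Sham reads, 1154 CPM (860 to 1549), at least 12.8-fold lower in LPS lung. The other 2 Tnrc6a junctions had 2 Sham reads each, and neither was listed in the LPS library, so no Tnrc6a circRNA was listed after LPS. Gigyf1 encodes a partner of a cap-binding translational repressor, and its ring on chromosome 12 from 22238126 to 22238269 spans 144 nt. It had 29 Sham reads, 761 CPM (530 to 1093), and was at least 8.42-fold lower. It lies inside a longer Gigyf1 junction, from 22237823 to 22238433, that had 18 reads in both libraries, 472 CPM in Sham (299 to 746) and 343 CPM in LPS (217 to 542).

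Among the remaining hosts with at least 20 Sham reads, Anks1a, an adaptor protein that binds Eph receptors, had 31 reads (813 CPM) between 7568495 and 7573740 on chromosome 20, and its second junction, with 4 Sham reads, was not listed after LPS either. Pus10, a pseudouridine synthase, had 23 reads (603 CPM), while a shorter ring within it had 2 LPS reads and no listed Sham read. Ptms encodes parathymosin, a small acidic nuclear protein. Its junction on chromosome 4 from 157436084 to 157436610 had 26 reads (682 CPM), and the same start joined to 157436365 had 21 Sham and 40 LPS reads. This Ptms start was thus used in both libraries, with the nearer partner listed in both. Col4a1, with 21 reads, is described with the matrix genes.

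The 6 circRNAs with a small-RNA chain and at least 20 Sham reads lay on chromosomes 4, 6, 10 and X. The 2 highest lay on chromosome X from 106167034 to 106178509, with 72 reads (1889 CPM, at least 20.9-fold lower), and on chromosome 6 from 144211592 to 144275272, with 63 reads (1653 CPM, at least 18.3-fold lower). A junction sharing an end with the ring on chromosome 6 had 9 LPS reads, whereas neither end of the ring on chromosome X was used in the LPS list. On chromosome X as a whole, 8 of the 20 circRNAs with at least 5 Sham reads were at the LPS fill-in (40.0%). This was the highest share of any chromosome with such circRNAs, and chromosome 5 had the lowest, 16 of 123 (13.0%). Chromosome X also had the fewest such circRNAs among these chromosomes, so its share is coarse. Both chromosomes were named for their extreme shares, and no difference was tested. The 4 circRNAs of chromosome Y had fewer than 5 Sham reads each.

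Extracellular matrix and adhesion genes held the largest share of selected circRNAs among 14 host lists. Of the 54 matrix and adhesion circRNAs with at least 5 Sham reads, 22 were at the LPS fill-in, 40.7% against 23.6% of all. Counts by host list here and below include rings whose small-RNA chain also names a gene of the list. The lists were made from symbol patterns and do not hold every gene of a function. Fip1l1 and Angpt1, with selected rings of 14 Sham reads each, and Smchd1, with 10, are in none of them. In the mirrored selection the matrix and adhesion list had 13 of 40 (32.5%), against 28.2%. The count rests on 3 structural genes. Eln contributed 10 of the 22, Col4a1 3 and Col3a1 3, and the rest came from Adamts17 with 2 and from Itga9, Ptprm, Adam8 and Pkp2 with 1 each. Without Eln the share was 12 of 39 (30.8%), and without Eln and the collagens 6 of 29 (20.7%), both chosen after seeing the data.

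Eln encodes tropoelastin, the soluble precursor of the elastic fibres that let the lung recoil. The table holds 21 Eln junctions on chromosome 12, all listed in Sham, and 10 of them, with 5 to 17 reads each and 96 in all, were selected. The highest of these ran from 25016512 to 25016857 with 17 reads, 446 CPM (279 to 714), at least 4.94-fold lower, followed by one from 25002352 to 25005525 with 14 reads and one from 25000564 to 25002081 with 13. The 11 Eln junctions that were not selected went from 235 Sham reads (6166 CPM) to 206 LPS reads (3923 CPM), with 7 of them listed in LPS. Most of these reads came from 2 junctions. The one from 25007056 to 25007716 had 101 Sham and 86 LPS reads, and the one from 25001615 to 25002399 had 74 and 84. In Eln, the rings with many reads were thus listed in both libraries, and those at the LPS fill-in had at most 17 Sham reads. Of the 10, 2 shared an end with an Eln ring listed in LPS, beside 23.8% of all 390.

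In Col4a1 and Col3a1, little or nothing was left in the LPS list, whereas other collagens of the list kept rings there. Col4a1 encodes a type IV collagen chain of basement membranes, including that between alveolar epithelium and capillaries. Its 3 selected junctions on chromosome 16 had 21, 11 and 7 Sham reads, led by the ring from 83589887 to 83591017 at 551 CPM (360 to 842), at least 6.10-fold lower. The only other Col4a1 junction had 2 Sham reads, and no Col4a1 circRNA was listed in LPS lung. Col3a1 encodes a fibrillar collagen of the interstitium, and 3 of its 9 junctions, on chromosome 9, were selected with 9, 7 and 5 Sham reads. The other 6 held 49 Sham reads (1286 CPM) and 2 LPS reads (38.1 CPM). All 9 Col3a1 junctions were listed in Sham and 1 in LPS. Among circRNAs with at least 5 Sham reads, Col6a1 had 6 Sham and 10 LPS reads, Col5a2 11 and 6, and Col6a5 17 and 3, each in 1 ring. These 3 collagens were named after their values were seen.

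Secreted proteases and adhesion receptors of the same list showed other patterns. Adamts17, a secreted metalloprotease, had 17 Sham reads (446 CPM, at least 4.94-fold lower) for the ring on chromosome 1 from 128030898 to 128044918 and 5 reads for a ring ending at 127887913. This end was also that of the main Adamts17 ring, which starts at 127881908 and went from 79 Sham reads at 2073 CPM (1664 to 2582) to 240 LPS reads at 4571 CPM (4029 to 5185). Adamts17 rings as a whole were therefore higher in the LPS list while 2 of them were at the fill-in. Itga9, an integrin subunit, had a selected ring with 9 reads that shares its start with a ring of 4 Sham and 5 LPS reads. The homophilic receptor phosphatase Ptprm had 8 reads, and Adam8, a membrane metalloprotease of leukocytes, and Pkp2, a desmosomal protein, had 5 each.

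Lung cell markers were looked for among the hosts of all circRNAs. Of 38 markers, 13 hosted a circRNA, with 548 Sham reads (14379 CPM) and 448 LPS reads (8533 CPM) in sum. These sums include 15 selected rings, which are at the LPS fill-in by the rule. Differences between the sums therefore follow in part from the selection. Fibroblast and smooth muscle markers were hosts for 4 of 8, with 11020 CPM in Sham and 5161 CPM in LPS. They held 13 of the 15 selected rings. Their most abundant gene was Eln, at 8685 and 3923 CPM, while Col1a1, Col1a2, Myh11 and Acta2 had no circRNA. Without its 10 selected rings Eln had 6166 CPM in Sham and 3923 CPM in LPS. Npnt of the same list went the other way, from 11 Sham reads (289 CPM) to 57 LPS reads (1086 CPM). Endothelial markers were hosts for 4 of 8, at 1784 and 1086 CPM, led by Vwf at 1522 and 1009 CPM, with Pecam1 and Cdh5 at 0. Ptprb of this list went the other way, with no listed Sham read and 4 LPS reads (76.2 CPM). Alveolar epithelial markers were hosts for 3 of 10, at 1522 and 2190 CPM, led by Rtkn2 at 1391 and 2133 CPM, with Sftpb and Ager at 0. Sftpc went the other way, with 5 Sham reads (131 CPM) and no listed LPS read. Macrophage and leukocyte markers were hosts for 2 of 8, at 52.5 and 95.2 CPM, with Ptprc, Marco and Cd68 at 0. Itgam had no listed Sham read and 3 LPS reads, while Mrc1 had 2 reads in both libraries (52.5 and 38.1 CPM). None of the 4 airway markers had a circRNA. CircRNA hosts thus mark lung tissue only in part, and many defining markers are absent. In bulk tissue, fewer cells of a type and less RNA per cell cannot be told apart, and the part of cell composition in the matrix counts was not tested.

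In the growth factor, TGF-beta and Wnt list, 9 of 49 circRNAs with at least 5 Sham reads were selected (18.4%). The highest was Tek, the angiopoietin receptor of endothelium, on chromosome 5 from 113794314 to 113803150, with 14 Sham reads, 367 CPM (219 to 617), at least 4.07-fold lower. Bmper, a secreted BMP-binding protein, followed with 8 reads. The docking protein Gab2 and the Hedgehog receptor Ptch1 had 6 each. Of the 8 single hosts in the list, 3 had other rings listed in LPS. Summed over all other rings, listed in LPS or not, Tek had 4 Sham and 2 LPS reads and Bmpr2 15 and 8. The 4 Sham reads of Tek came from a ring that was not listed in LPS. In Flt1 the other ring had 62 Sham reads (1627 CPM) and 165 LPS reads (3143 CPM). The selected rings of Bmpr2 and Flt1 had 5 reads each.

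Innate immune and MAPK genes, which relay signals of bacterial products such as LPS, held the lowest share. Only 1 of their 17 circRNAs with at least 5 Sham reads was selected (5.88%), a Map4k3 ring with 6 reads. The share of all circRNAs was 23.6%. In the mirrored selection the same list had 10 of 30 (33.3%), near the 28.2% of all. With 17 and 30 circRNAs these shares are coarse, and no difference was tested.

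Splicing and RNA-binding proteins held 18 of 87 (20.7%), and 14 of 61 (23.0%) when only rings with 1 host gene are counted, since 4 of the 18 have a small-RNA chain that also names a gene of the list. The mirrored selection had 11 of 57 rings with 1 host gene (19.3%). After Tnrc6a and Gigyf1 came the splicing regulator Rbfox2 with 14 Sham reads (367 CPM) and the polyadenylation factor Cpsf1 with 13 (341 CPM) for a ring of 142 nt. The Rbfox2 ring shares its start with a ring that had 15 Sham and 13 LPS reads.

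Chromatin and histone modifiers held 12 of 74 (16.2%). The top 4 had 10 Sham reads each (262 CPM, at least 2.90-fold lower), namely the chromatin remodellers Arid1b and Chd6 and the SET-domain genes Ash1l and Kmt2e. In each, another ring was listed after LPS. The Ash1l ring shares its start with one that had 34 Sham and 58 LPS reads, and the Kmt2e ring with one that had 7 and 23. Arid1b spans 91438 nt, and both of its ends were used by rings with 4 and 2 LPS reads. Zinc-finger proteins held 6 of 34 (17.6%), led among single hosts by Zmym4 with 13 reads and Zc3h11a, an mRNA export factor, with 11. The only Zc3h11a ring of the table was the selected one.

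Trafficking genes held 16 of 83 (19.3%), with the Rab-regulating Tbc1d22b highest at 13 Sham reads (341 CPM), then Rab1a, a GTPase of transport from the endoplasmic reticulum to the Golgi, and Ralgapa2, a Ral GTPase-activating subunit, at 10 each. Tbc1d22b, Rab1a and Rab3ip (8 reads) had no other circRNA in the table. Actin and GTPase-regulating genes held 20 of 94 (21.3%) but only 1 with 10 or more reads, Arhgap21 with 13. Lpp, a LIM protein of focal adhesions, and the spectrin Sptbn1 had 9 each and Arhgap44 had 8. The Sptbn1 ring spans 66254 nt and shares its end with a ring of 7 reads in both libraries.

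Transporters and ion channels held 8 of 42 (19.0%), and 6 of 37 (16.2%) when only rings with 1 host gene are counted. Abcb1a, which encodes the drug exporter P-glycoprotein, was highest with 13 Sham reads (341 CPM, at least 3.78-fold lower) for a junction spanning 107113 nt on chromosome 4. The phospholipid flippase Atp8a1 followed with 9 reads and the calcium-binding Kcnip3 with 8, neither with another circRNA. Ubiquitin and SUMO enzymes held 11 of 59 (18.6%), led by the SUMO protease Senp6 with 10 reads, then by Klhl3, an adaptor of cullin ligases, and the ligase Hace1 with 7 each, and Arih1 with 6. Lipid and mitochondrial genes held 8 of 30 (26.7%), and with the matrix genes they made up the 2 lists above the share of all circRNAs. With rings of 1 host gene only, 4 of the 14 lists lay above the 22.3% of all such rings. Acacb, the acetyl-CoA carboxylase of the mitochondrial surface, had 10 reads, the thiolase Acat1 9, the succinyl-CoA ligase subunit Suclg2 8 and the mitochondrial ribosomal protein Mrpl27 6.

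Cell cycle and repair genes held 6 of 30, led by the retinoblastoma gene Rb1 on chromosome 15 from 55151603 to 55154467 with 15 reads, 394 CPM (239 to 649), at least 4.36-fold lower and the only Rb1 ring listed. Top2a and Ncapg, which act on chromosomes in dividing cells, had 5 each. The other 2 Top2a rings had 5 Sham and 28 LPS reads in sum. The lipid-kinase and phosphatase list held 4 of 23 (17.4%), with Dgke at 10, Inpp5a and Pip5k1b at 7 and Inpp4b at 6. Cilia and microtubule genes held 3 of 22 (13.6%), namely Clip2 with 7 and Cntrl and Ttll5 with 6. In sum, 134 of the 305 circRNAs with 1 host gene fell into at least 1 list, 21.3% of the 630 such circRNAs with at least 5 Sham reads, against 23.2% of the 737 in no list.

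Whether the host still gave other rings after LPS was asked next. Of the 305 circRNAs with 1 host gene, 153 (50.2%) had another junction of the same host in the LPS list. The corresponding share was 45.9% for the mirrored selection, counted in the Sham list, and in the LPS list 59.8% for circRNAs in both libraries with at least 5 Sham reads and 51.3% for all circRNAs with 1 host gene. For the other 152, no circRNA of the host was listed in LPS lung. By host, 134 of the 284 genes had a circRNA in LPS and 150 had none. The selected ring was the only circRNA of its host in the table for 129 of these 150, so that for most of them nothing else of the host was there to compare.

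The rings of the selected hosts that were not themselves selected numbered 381. They held 6578 Sham reads (172597 CPM) and 8092 LPS reads (154119 CPM), a log2 ratio of LPS over Sham of −0.16 on the scale with 0.5 reads added. This set lacks the Sham-only rings with 5 or more reads by construction. Among the 176 listed in both libraries the median log2 ratio was −0.46. A ring with equal read numbers has this value too, so the median sits on ties of small whole numbers and says little about the hosts. Gigyf2, a relative of Gigyf1, was the host with the most reads, 2408 in Sham and 1497 in LPS. Its selected ring on chromosome 9 from 94474695 to 94481167 had 6 reads and shares its end with the most abundant Gigyf2 ring, at 2343 Sham and 1432 LPS reads. Without Gigyf2 the log2 ratio of the sums was 0.20. The sign also turned with libraries scaled to the median of ratios (0.30) and for rings sharing neither end with a selected one (0.091), so no direction is read from this sum.

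Several hosts gave abundant rings in both libraries next to a selected ring with few reads. Gtf2i, a general transcription factor, had 670 Sham and 930 LPS reads in other rings beside 2 selected rings of 5 reads each. Ssbp2, which binds single-stranded DNA, had 459 and 715, mostly in a ring from 20507150 to 20531444 on chromosome 2, beside a selected ring of 8 reads. Crim1, a transmembrane protein that binds BMPs, had 257 and 482 in 14 other rings. The selected Crim1 ring on chromosome 6 from 815697 to 907083 encloses most of the others and had 6 reads, and its end was shared by a ring with 104 Sham and 204 LPS reads. Suclg2 had 194 and 140 reads in other rings, and Dock4, an exchange factor for Rac, had 157 and 145 beside 2 selected rings. In these hosts the selected rings were minor products of genes that were still back-spliced in the LPS library. Ptk2, the focal adhesion kinase gene, was different, since its 2 selected rings of 5 reads each stood beside other rings with 4 Sham and 42 LPS reads.

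Altogether 11 hosts had at least 2 selected rings, 32 in sum. Besides Eln, Col4a1, Col3a1, Adamts17, Gtf2i, Dock4 and Ptk2 these were Senp6, Atp9b, Evi5 and Prrc2b, with 2 each. Evi5, a Rab GTPase-activating protein, had rings of 7 and 6 reads, and both share their start with a ring listed in LPS. Prrc2b had 6 reads for each of its 2 selected rings and 8 LPS reads, with no listed Sham read, in its 2 others. The 2 selected Atp9b rings had 8 and 5 reads.

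Sharing of a junction end with a circRNA listed in LPS was seen for 93 of the 390 (23.8%), and for 15.1% when the partner needed at least 5 LPS reads. The start was shared by 54, the end by 48 and both by 9. With LPS partners of any listed value it was 43.4% for circRNAs in both libraries with at least 5 Sham reads and 30.4% for all. In the mirrored selection 116 of 464 shared an end with a circRNA listed in Sham. These differences were not tested. The span overlapped that of a circRNA listed in LPS for 126 (32.3%, against 35.9% of all), with 70 enclosing one and 52 lying inside one. For 20 of the 84 circRNAs with a small-RNA chain an end was shared (23.8%), and for 73 of the 305 with 1 host gene (23.9%).

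The partners with the most LPS reads show how small the selected ring can be beside the ring it shares an end with. After the Gigyf2 partner, the highest was on chromosome 19, where a small-RNA chain is named. The ring from 25886356 to 25903940 had 5 Sham reads, and the ring from the same start to 25886887 had 249 Sham and 646 LPS reads. The partners of the Adamts17, Crim1 and Elf2 rings followed with 240, 204 and 175 LPS reads. Elf2, an ETS-family transcription factor gene on chromosome 2, is a special case, since its selected ring ends at 140387500 and the abundant ring with the same start ends at 140387503. That ring went from 61 Sham reads at 1601 CPM (1246 to 2055) to 175 LPS reads at 3333 CPM (2875 to 3864).

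Elf2 was among 9 selected circRNAs that had a further listed circRNA within 20 nt at both ends, 7 of them with LPS reads. The offset was 3 nt for 6 of the 9. The zinc-finger gene Bcl11b and Szrd1 had this offset at the end, with 7 and 10 LPS reads in the neighbouring ring. Such near-identical pairs count as separate circRNAs in the table, and whether they are separate splice products was not tested.

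A Sham-only ring and an LPS-only ring, each with at least 5 reads in its library, shared an end in 18 pairs. These took in 18 selected circRNAs (4.62%) and 18 of the mirrored selection (3.88%). The common site was the start in 9 pairs and the end in 9, and the Sham ring was the longer one in 13. Tcaim, which encodes a mitochondrial inhibitor of T cell activation, gave the pair with the most LPS reads. From its start at 131848802 on chromosome 8, the ring to 131872872 had 5 Sham reads at 131 CPM (56.0 to 307) and the ring to 131860607 had 28 LPS reads at 533 CPM (369 to 771). In Lpp, rings ending at 79399831 on chromosome 11 had 9 Sham reads from a start at 79361488 and 23 LPS reads from 79309778. In Atp9b, rings ending at 77489468 on chromosome 18 had 8 Sham reads from 77477060 and 19 LPS reads from 77484239. Wdr7 had 7 Sham and 14 LPS reads. In these genes 1 splice site was thus joined to different partners in the 2 lists, at low read numbers for most.

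Irrespective of shared ends, 32 hosts had both a selected ring and an LPS-only ring with at least 5 reads. These were 11.3% of the 284 hosts of the selected rings and 9.25% of the 346 hosts in the mirrored selection. Among them were the lysine demethylase Kdm6a with 6 Sham and 6 LPS reads from a common start, Inpp5a, Senp6 and Arih1. The ring of Arih1 had 6 Sham reads, whereas another Arih1 ring had 11 LPS reads with no end in common.

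The genomic span between the ends, which includes introns, had a median of 4648 nt for the 390 circRNAs, with quartiles of 1412 and 12560 nt and a range of 140 to 186405 nt. The median was 3070 nt in the mirrored selection, 4090 nt for circRNAs in both libraries with at least 5 Sham reads and 4394 nt for all. Spans of at most 500 nt made up 58 of the 390 (14.9%), against 93 of 464 in the mirrored selection and 12.5% of all. Spans of at least 25000 nt made up 13.6%, against 8.84% and 11.1%. These differences were not tested.

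The extremes of span belonged to circRNAs with a small-RNA chain. The longest reached from 39220472 to 39406876 on chromosome 1 with 5 Sham reads, followed by 167785 nt on chromosome 20 with 13 reads and 167505 nt on chromosome 2 with 6. The shortest were 2 rings of 140 nt on chromosome 1, starting at 221152381 with 5 reads and at 221157442 with 7, followed by 2 of 141 nt, on the same chromosome from 84978994 with 5 and on chromosome 8 from 51196463 with 6. Among circRNAs with 1 host gene, the short ring of Cpsf1 and the long ring of Abcb1a named above lie near these ends. Exon and intron annotation of the build was not used here, so the spliced length of these rings is not given.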

How the data were processed

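CircRNA of lung tissue was analysed in 1 Sham and 1 LPS library. The authors deposited 1 table of junction values under the heading TPM, which behave as CPM of junction reads, since each column has the same sum and steps of 1 size with no length term. The submitters' processing notes name CASAVA 1.8, BWA and the build rn6, in which positions are taken to be given. The circRNA caller is not given in the sources used here. Divided by the value of 1 read, 100% of the listed values came within 0.1 reads of a whole number. No count test was used. Named circRNAs were those with at least 20 Sham reads, up to 4 with the most reads per host list, those of hosts with at least 2, the 5 whose end partner and the 5 whose host had the most LPS reads, the 3 longest and 3 shortest (4 with a tie), and those of the hosts in the primer table of the methods. Others named (Flt1, Bmpr2, Itga9, Ptprm, Adam8, Pkp2, Szrd1, Wdr7, Kdm6a, Fip1l1, Angpt1 and Smchd1) were chosen after their values were seen. Members and host lists were chosen with earlier results of these data known. Symbol patterns that caught genes of another function were narrowed after the members were seen, which took the transporter list from 12 to 8 circRNAs and the cell cycle list from 8 to 6. Of 284 host names, 269 matched a symbol and 8 a synonym of the GRCr8 gene table. Intervals are 95% Wilson intervals. Steps were tested on simulated data. Python 3.11.15, numpy 2.4.6, pandas 2.3.3 and scipy 1.17.1 were used.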

Additional observations from a re-analysis of the deposited data

How the results depend on the processing

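With 10 or 20 Sham reads as the minimum, 74 or 13 circRNAs were selected in place of 390, and 1533 with no minimum, as fewer or more values qualify. The share with another junction of the host in LPS, 50.2%, was 35.1% when that junction needed at least 5 LPS reads, 39.7% when it could share neither end, and 60.0% for circRNAs with at least 10 Sham reads. The share with a common end, 23.8%, was 15.1% when the partner needed at least 5 LPS reads. The log2 ratio of the summed other junctions, −0.16, was 0.30 when libraries were scaled to the median of ratios over circRNAs in both, 0.091 for junctions sharing neither end, 0.20 without Gigyf2 and −0.21 for those in both libraries, and the cause was not tested. CircRNAs in at least 1 host list numbered 143, and 30 with at least 10 Sham reads. The matrix share, 40.7%, was 20.7% without Eln and the collagens and 27.6% with at least 10 Sham reads, where all circRNAs gave 8.82%. The median ratio of the Sham value to the LPS limit over the 100 named circRNAs was 2.32, and 3.67 with 3 reads as the limit. Counting 2 LPS reads as not listed gave 510 circRNAs. The settings for junctions in both libraries, for 2 LPS reads and for the matrix share were chosen after seeing the data. No paired analysis was possible because Sham and LPS are represented by 1 library each, and for the same reason no library could be left out.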
